A study of Homo sapiens with 6 samples.

Results

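The PC-9 cell line came from a human lung adenocarcinoma and carries an activating EGFR mutation. The transcriptome described here is that of its control cells, the 2 libraries labelled shScr among the 6 RNA-Seq libraries of the series. The rule that chose them uses this label and no measured value. The shScr cells carried a scrambled shRNA and were grown in RPMI medium with 10% FBS. The methods for this RNA-Seq name no treatment. Total RNA was isolated for transcriptome sequencing. By the labels the control is shScr, while the methods speak of parental cells. Nothing in the labels says that the replicates were separate cultures, and both come from 1 cell line. The spread between them may therefore be technical. Only 1 condition is described, so no test was run.

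In lung adenocarcinoma with mutant EGFR, the receptor signals without its ligand through RAS, RAF, MEK and ERK and through PI3K and AKT. Lung adenocarcinomas arise from the epithelium of the distal lung, in which alveolar type II cells make surfactant and club cells secrete protective proteins. Simple epithelia are built on keratin filaments, of which KRT8 pairs with KRT18. Many human genes give several mRNAs by alternative splicing, start or end, and a gene's output is shared among these isoforms.

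Levels are given as TPM (transcript abundance scaled to a common total), which divides read counts by transcript length so that genes can be compared, and which sums to 1000000 in each library. TPM was summed over the isoforms of each gene symbol. Values are given for shScr replicate 1 first and replicate 2 second. A gene counted as expressed at 1 TPM or more in both libraries. The libraries held 32811419 and 32866663 expected counts, that is, reads after those shared by isoforms were split.

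The sequences that open some of the most abundant transcripts are shown first, because ribosomal protein genes made up 60 of the 100 genes with the highest TPM. Such mRNAs usually begin with a cytosine and a run of pyrimidines, the TOP motif, through which mTOR signalling is known to control their translation. Each window runs from 30 bases before the annotated start to 20 bases from it on (RefSeq, GRCh38.p14). Capitals mark a C at the start followed by 4 or more C or T. FTL, the ferritin light chain, and MT2A, a metallothionein, are shown as abundant genes whose windows lack this run.
RPL37A, chr2:216498814-216498863, plus strand: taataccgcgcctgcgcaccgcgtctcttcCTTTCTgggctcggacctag
RPS27, chr1:153990732-153990781, plus strand: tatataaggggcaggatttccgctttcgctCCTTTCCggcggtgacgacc
RPS21, chr20:62387073-62387122, plus strand: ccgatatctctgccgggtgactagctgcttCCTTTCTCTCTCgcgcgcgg
RPLP1, chr15:69452788-69452837, plus strand: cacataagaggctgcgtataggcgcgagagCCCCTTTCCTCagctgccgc
EEF1A1, chr6:73521013-73521062, minus strand: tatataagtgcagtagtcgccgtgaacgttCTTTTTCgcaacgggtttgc
FTL, chr19:48965279-48965328, plus strand: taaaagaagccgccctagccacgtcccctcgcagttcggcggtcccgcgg
MT2A, chr16:56608554-56608603, plus strand: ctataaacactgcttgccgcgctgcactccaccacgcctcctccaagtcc

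The run was read on the strand of the gene, at the annotated start only. It was found in 48 of the 69 ribosomal protein genes with a window (69.6%), against 677 of 9125 expressed genes (7.42%) and 1404 of all 27305 genes with a window (5.14%). Among the 100 most abundant genes it was present in 36 of 48 ribosomal protein genes and in 4 of 29 other genes. A window follows 1 annotated start per gene, which need not be that of the isoform these cells use. A match is a description of these letters and not evidence of control.

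Of the 26334 gene symbols listed, 12065 were expressed, 7479 reached 10 TPM in both libraries, 1377 reached 100 TPM and 145 reached 1000 TPM. The expressed symbols were 11441 of the 19248 with a protein-coding isoform (59.4%) and 624 of the 7086 with noncoding isoforms only (8.81%). Noncoding symbols held 2.11% and 2.07% of all TPM. The 100 most abundant genes held 39.8% and 35.9% of all TPM, and 189 and 255 genes were enough to reach 50%. Ranked by expected counts, the first 100 genes held a mean of 20.4% of the counts, against 37.9% in TPM. The median expressed gene lay at 15.97 and 18.21 TPM.

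GAPDH, a glycolytic enzyme, was the most abundant gene at 13978 and 13808 TPM. Ribosomal protein genes made up 60 of the 100 most abundant and 18 of the first 25. Together the 87 genes of this family held 27.7% and 23.7% of all TPM, with 85 expressed and 67 at 1000 TPM or more in both libraries. In expected counts, which are not divided by length, their mean share was 7.23% against 25.7% in TPM. The family was not uniform. RPL37A lay at 11606 and 8159 TPM, whereas RPL39L, a paralog known from testis and cancer cells, lay at 78.3 and 81.5 TPM. RPL3L and RPL10L, paralogs of muscle and testis, were the members not expressed.

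The ribosomal proteins among the first 25 included RPL37A, RPL39, RPS27, RPLP1, RPS21, RPL35, RPS29, RPL8, RPS14, RPS2, RPS18, RPL41, RPS16, RPS28 and RPS9, with means from 9883 down to 4504 TPM. RPL13AP5, a processed pseudogene of RPL13A, was listed in second place at 10382 and 9892 TPM. The parent gene RPL13A had 1368 and 1306 TPM. The sequences are nearly identical and their reads can be split between them, so neither value is certain.

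The remaining genes of the first 25 were keratins, a ferritin and a translation factor. KRT8 lay at 9433 and 10066 TPM, KRT18 at 6951 and 7762 TPM and KRT19 at 5530 and 5790 TPM. FTL, which stores iron, lay at 7658 and 7148 TPM, and EEF1A1, which brings tRNA to the ribosome, at 4376 and 4872 TPM. The plot of the most abundant genes shows that the 2 libraries lay close together for the keratins and far apart for several short ribosomal protein genes.

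**Figure D1:**
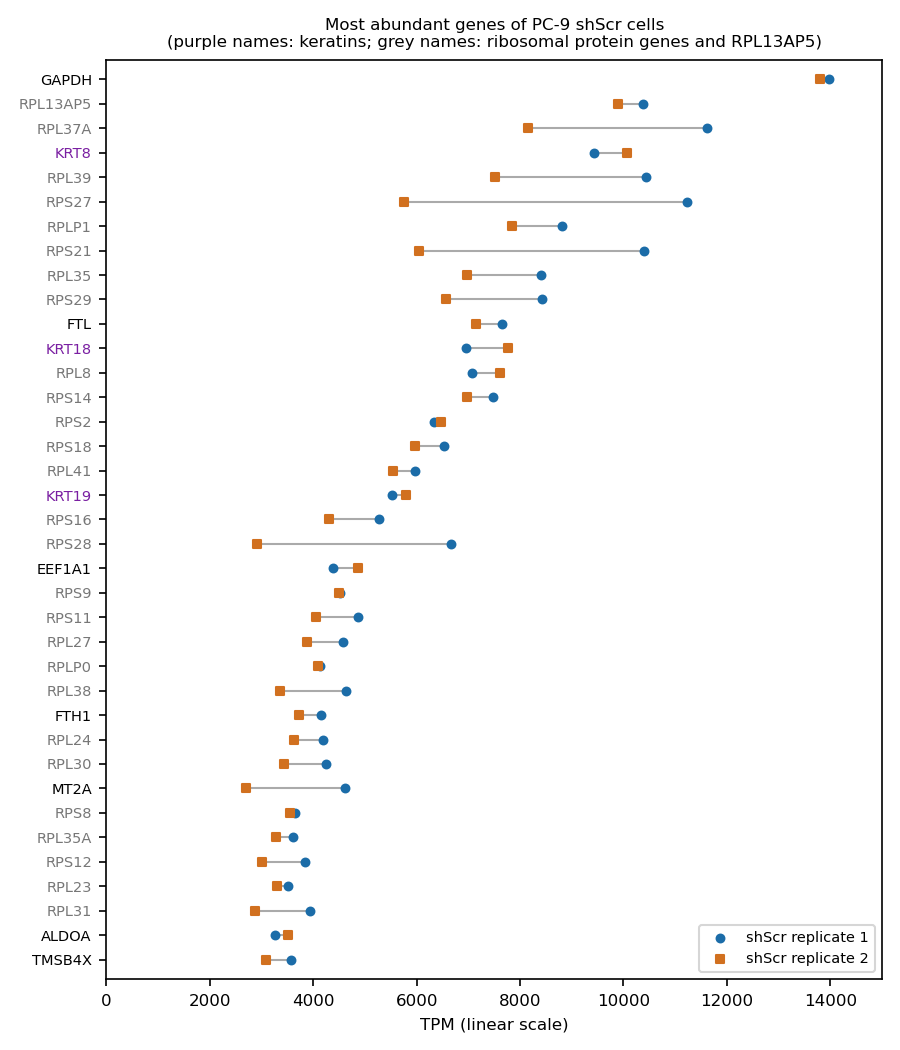
The 37 genes drawn of the 40 with the highest mean TPM in PC-9 shScr cells (horizontal axis, linear TPM; circles, replicate 1; squares, replicate 2). GAPDH lies at 13978 and 13808 TPM, and RPS27 spans 5748 to 11231 TPM.

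The libraries agreed within a factor of 2 for all but 40 of the 12065 expressed genes. Genes under 1 TPM in either library were not part of this comparison, and 1720 symbols had a count in only 1 library. The log2 ratio of replicate 2 to replicate 1 had a median of 0.19 and an SD of 0.21. Gene counts differed by more than counting noise, with chi-square divided by its degrees of freedom at 8.02, so the files are not 1 library deposited again. This does not show whether the cultures were separate. Fragments were shorter in replicate 2: the effective lengths imply means of 281 and 231 nt. The ratio moved with transcript length. Its median was −0.29 in 194 genes whose transcripts were under 600 nt, 0.09 in 2623 genes of 1000 to 2000 nt and 0.28 in 3739 genes of 4000 nt or more.

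The shortest class held 22.1% of all TPM in replicate 1 and 17.3% in replicate 2. Among genes at 10 TPM or more in both libraries, PCNA-AS1 differed most, at 501 and 159 TPM. It is antisense to PCNA, and whether counting used strand is not stated, so it is not known whether reads of both were told apart. RPS28 followed at 6663 and 2914 TPM, C4orf48 at 330 and 168 TPM and RPS27 at 11231 and 5748 TPM. RMRP, an RNA of 268 nt, came next at 29.3 and 54.1 TPM, from only 11 and 47 counts. Only PCNA-AS1 and RPS28 exceeded a factor of 2 at this level, and 4 of the 5 were lower in replicate 2.

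When TPM was recomputed from the expected counts with 1 effective length for both libraries, RPS27 came to 8978 and 6845 TPM and RPS28 to 5663 and 3335 TPM. Under the same setting KRT8 came to 9740 and 9836 TPM. Levels of the short, abundant genes therefore depend on the library and on the length used. In the deposited TPM, RPS27 ranked 3rd and 17th and RPS28 15th and 46th. Keratin ranks also moved, KRT8 from 7th to 2nd and KRT18 from 14th to 6th. The TPM of these keratins differed less between the libraries than that of RPS27 and RPS28. The part of fragment length in the remaining gap was not tested.

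**Figure D2:**
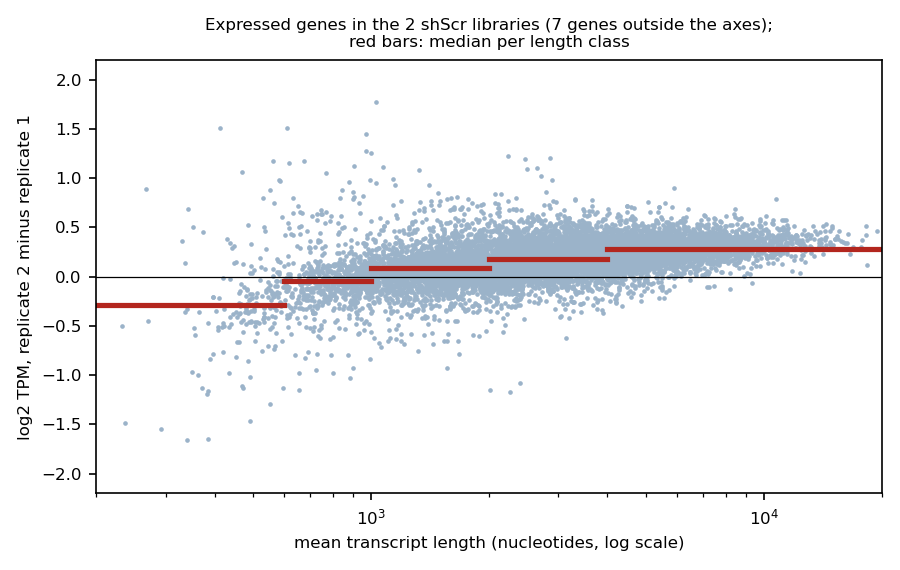
Difference of log2 TPM between the 2 shScr libraries (vertical axis, replicate 2 minus replicate 1) against mean transcript length (horizontal axis, nucleotides, log scale), 1 point per expressed gene; red bars are medians per length class, and 7 genes lie outside the axes. The medians climb from −0.29 in the shortest class to 0.28 in the longest.

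The labelled cell type was checked against the 4 markers EGFR, EPCAM, KRT8 and KRT18, and all were expressed. The limit for expression was reached by 59.4% of all symbols with a protein-coding isoform. This check alone therefore cannot tell PC-9 from other epithelial lines. EPCAM, an adhesion protein of epithelia, lay at 379 and 409 TPM, and EGFR at 69.1 and 87.4 TPM. On GRCh38, the leading isoform of EGFR lies at chr7:55019101-55211628 on the plus strand and has 28 exons, and that of KRT18 at chr12:52948964-52952901 on the plus strand with 7 exons. KRT8 lies nearby at chr12:52897194-52906618 on the minus strand with 9 exons, and EPCAM at chr2:47369148-47387034 on the plus strand with 9 exons. KRT8 and KRT18 have many processed pseudogenes, with which reads can be shared.

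The epithelial list was expressed in full, 27 of 27 genes with a median of 128 TPM. For this and all later lists, the share to compare is 59.4%, that of all symbols with a protein-coding isoform. Besides the keratins, KRT7, typical of lung and other ductal epithelia, lay at 3118 and 3089 TPM. KRT7, KRT8, KRT18 and KRT19 alone held 2.503% and 2.67% of all TPM. The tight junction genes CLDN4 and CLDN7 lay at 539 and 559 and at 512 and 540 TPM, and CDH1, E-cadherin, at 114 and 134 TPM. ESRP1, a splicing regulator of epithelial cells, lay at 89.8 and 103 TPM.

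The mesenchymal list was expressed in 4 of 10 genes. FN1, fibronectin, lay at 39.7 and 52.4 TPM and TWIST2 at 28.5 and 28.8 TPM, and SNAI1 and SNAI2 stayed under 4 TPM. The other 6 genes of the list were not expressed, with means of 0.45 TPM at most. CDH2, N-cadherin, lay at 0.23 and 0.15 TPM and the repressor ZEB1 at 0.04 and 0.05 TPM. VIM, vimentin, had 4 and 28 counts (0.09 and 0.74 TPM), and SPARC had 6 and 55 counts (0.08 and 0.82 TPM). Replicate 2 was thus higher than replicate 1 for both at a low level.

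Markers of differentiated alveolar type II cells were largely missing, with 4 of 12 genes expressed. LPCAT1, which makes surfactant lipid, lay at 76.7 and 96.7 TPM, ETV5 at 35.7 and 44.3 TPM, ABCA3 at 5.08 and 5.48 TPM and LAMP3 at 3.60 and 4.05 TPM. The surfactant protein genes SFTPC and SFTPA1 had no count in either library. For SFTPC this allows up to 0.147 and 0.160 TPM at the length of its longest isoform. SFTPB reached 0.03 and 0 TPM and NAPSA, a protease that processes it, 0.16 and 0.43 TPM. None of these surfactant protein genes reached the limit for expression.

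NKX2-1, the transcription factor of lung identity, lay at 0.21 and 0.39 TPM, from 9 and 16 counts. Of the list of lung and foregut factors, 12 of 20 were expressed. CEBPB lay at 338 and 320 TPM, ID1 at 137 and 108 TPM, FOXA1 at 47.3 and 56.6 TPM and ID3 at 48.7 and 51.0 TPM. SOX9, a factor of the lung bud, lay at 41.3 and 46.8 TPM. FOXA2 straddled the limit at 0.76 and 1.08 TPM, and HNF4A, of gut and liver, had no count. For HNF4A this allows up to 0.0290 and 0.0329 TPM at the length of its longest isoform.

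Other airway lists were expressed in part. Of the alveolar type I list, 5 of 8 genes were expressed, led by CAV1 at 86.7 and 95.8 TPM, with EMP2, CAV2 and RTKN2 next. PDPN had no count and AQP5 0 and 0.09 TPM. Of the club and goblet list, 3 of 10 were expressed. These were BPIFB1 at 14.3 and 14.4 TPM, SPDEF, and SCGB1A1, the club cell secretory protein, at 4.07 and 3.17 TPM from 16 and 14 counts. MUC5AC reached 0 and 0.01 TPM and SCGB3A2 had no count.

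Of the ciliated list, 3 of 6 were expressed, namely CAPS at 25.5 and 29.1 TPM, FOXJ1 and RSPH1, while DNAI1, a motor of cilia, lay at 0.06 TPM in both. Of the basal and squamous list, 6 of 10 were expressed. KRT15 led at 69.5 and 67.4 TPM, followed by KRT16, KRT6A and KRT5, all far below KRT8. TP63, the basal cell factor, straddled the limit at 0.90 and 1.33 TPM, and DSG3 lay at 0.03 TPM in both. No gene of the neuroendocrine and tuft list was expressed, 0 of 10, with 5 genes at no count, among them NEUROD1 and INSM1.

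Markers of cell types that a pure line should lack were mostly near 0. In bulk RNA, fewer cells of a type and less RNA per cell cannot be told apart. The leukocyte list was expressed in 1 of 16 genes, CD68 at 99.5 and 116 TPM, a lysosomal protein that is also made outside macrophages. PTPRC, the CD45 gene that defines leukocytes, had 2 counts in each library. The summed TPM of the list was 102 and 119, of which CD68 held nearly all. The erythroid list was expressed in 0 of 6 genes, with 5 at no count, among them HBB.

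The fibroblast list was expressed in 2 of 10 genes, TAGLN at 34.3 and 51.9 TPM and COL1A1 at 2.85 and 2.88 TPM. DCN, LUM and THY1 had no count. The endothelial list was expressed in 3 of 8 genes, with CDH5 highest at 4.65 and 6.16 TPM, then ESAM and PECAM1, whereas KDR, TEK and EMCN stayed at 0.01 TPM or below. The neural and pigment list was expressed in 2 of 8 genes, MBP at 24.7 and 27.0 TPM and PMEL at 4.68 and 5.25 TPM, with TYR and DCT at no count. Of the gut and liver list, AGR2, a mucin chaperone, lay at 136 and 138 TPM and TFF1 at 3.51 and 1.73 TPM, and the other 10 genes, ALB and CDH17 included, were not expressed.

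**Figure D3:**
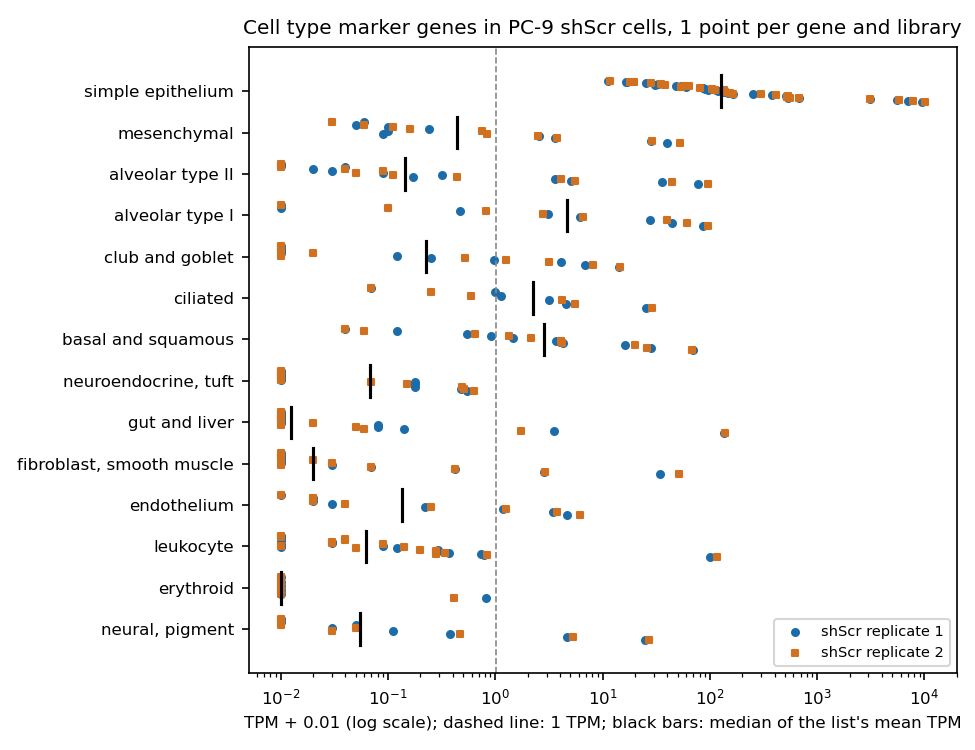
TPM + 0.01 (horizontal axis, log scale) of the genes of 14 cell type lists in both shScr libraries (circles, replicate 1; squares, replicate 2); black bars are list medians and the dashed line is 1 TPM. All 27 epithelial genes lie right of the line, with a median of 128 TPM, and the other medians lie under 5 TPM.

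The EGFR family has 4 receptors, which pair with each other when a ligand binds. EGFR ranked 1876th among all symbols, with a mean of 78.2 ± 13.0 TPM (SD, n = 2). ERBB2 lay at 49.1 and 53.7 TPM and ERBB3, whose kinase is nearly inactive, at 44.4 and 54.4 TPM. Both libraries of EGFR lay above both of these, whereas the ranges of ERBB2 and ERBB3 overlapped. ERBB4 had no count in either library, which allows up to 0.0113 and 0.0129 TPM at the length of its longest isoform.

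Of the 11 ligands, 4 were expressed, all of them ligands of EGFR. TGFA lay at 13.8 and 16.5 TPM and HBEGF at 14.7 and 13.7 TPM, with overlapping ranges. AREG, amphiregulin, lay at 6.37 and 5.0 TPM and BTC, betacellulin, at 1.39 and 2.94 TPM. EGF itself was low at 0.36 and 0.35 TPM, as were EPGN (0.42 and 0.50 TPM) and EREG (0.05 and 0.02 TPM).

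The neuregulins, ligands of ERBB4 or of both ERBB3 and ERBB4, were all under 1 TPM. NRG1 lay at 0.30 and 0.31 TPM, NRG2 at 0.57 and 0.53 TPM, NRG4 at 0.16 and 0.15 TPM, and NRG3 had no count. These cells thus expressed ERBB3 without expressing a neuregulin at 1 TPM.

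Genes that dampen EGFR were expressed in 15 of 16 cases. The phosphatase PTPN1 lay at 85.1 and 98.5 TPM and ERRFI1, the kinase inhibitor MIG6, at 83.1 and 92.5 TPM. Each was above EGFR within each library, but both ranges overlapped with that of EGFR (69.1 and 87.4 TPM). PTPN6 and SH3KBP1, an endocytic adaptor, followed at 40.8 and 43.5 and at 37.7 and 43.3 TPM. LRIG1 straddled the limit at 0.72 and 1.11 TPM. All 14 adaptors that carry the signal onward were expressed, led by SHC1 (84.4 and 93.6 TPM), the phosphatase PTPN11 (68.5 and 93.1 TPM), GRB2 (69.6 and 79.9 TPM) and CRKL (46.7 and 55.1 TPM).

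Along the RAS and ERK cascade, 16 of 18 genes were expressed. Of the RAS genes, NRAS lay at 58.7 and 76.6 TPM and HRAS at 54.3 and 64.8 TPM, and their ranges overlapped. The related RIT1 lay at 18.4 and 19.8 TPM and MRAS at 0.88 and 0.91 TPM. Among the RAF kinases, ARAF lay at 26.2 and 30.7 TPM and BRAF at 6.13 and 6.51 TPM, ranges that did not overlap.

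MAP2K2, the MEK2 gene, was the highest of the cascade at 153 and 170 TPM, above MAP2K1, the MEK1 gene, at 62.5 and 73.6 TPM. MAPK3, the ERK1 gene, lay at 68.8 and 66.0 TPM, which overlapped with MAP2K1. The scaffolds were low, KSR1 at 1.75 and 2.21 TPM, KSR2 at 0.29 and 0.28 TPM and SHOC2 at 8.01 and 9.25 TPM.

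The GTPase activators that switch RAS off were present, RASA1 at 29.3 and 33.6 TPM, NF1 at 10.2 and 13.7 TPM and RASA2 at 3.23 and 3.90 TPM. Of 22 genes that ERK signalling is known to raise, 21 were expressed. IER3 lay at 242 and 222 TPM and CCND1, cyclin D1, at 206 and 256 TPM, with ETV4 and DUSP4, a phosphatase of ERK, at 106 and 118 and at 98.5 and 114 TPM. ETV1 was the exception at 0.16 and 0.23 TPM. In the absence of a second condition these levels do not show how much of them depends on ERK.

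The PI3K and AKT list was expressed in 19 of 21 genes. AKT1 lay at 150 and 174 TPM, RHEB, which switches mTOR on, at 123 and 132 TPM, PIK3R2 at 66.1 and 74.0 TPM and AKT2 at 54.6 and 61.4 TPM. The leukocyte members PIK3CG and INPP5D were under 0.1 TPM. Of the JAK and STAT list, 8 of 11 were expressed, with STAT6 (50.2 and 57.5 TPM), STAT3 and JAK1 among the highest and JAK2, STAT4 and STAT5A under 1 TPM.

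Receptor tyrosine kinases, the class to which EGFR belongs, were expressed in 28 of 58 cases, and 7 had no count. This is 48.3%, against 59.4% of all symbols with a protein-coding isoform. DDR1, a collagen receptor, led at 209 and 240 TPM. EGFR followed with PTK7, a Wnt co-receptor, at 71.6 and 80.5 TPM, and these neighbours overlapped. EPHA2 lay at 59.9 and 59.6 TPM, overlapping with EPHB4 at 54.9 and 61.0 TPM. ERBB2, ERBB3 and RYK formed a further overlapping group.

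Receptors known for bypassing EGFR in resistant tumors differed widely at baseline. MET lay at 12.4 and 15.3 TPM, IGF1R at 10.1 and 12.9 TPM and FGFR3 at 27.0 and 30.6 TPM. AXL, a receptor of mesenchymal cells, lay just under the limit at 0.64 and 0.99 TPM, from 59 and 81 counts, FGFR1 at 3.94 and 4.19 TPM, and RET at 0.21 and 0.26 TPM. ROS1 had no count and ALK 0 and 1 count. KIT, PDGFRA and KDR were likewise at 0.01 TPM or below.

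**Figure D4:**
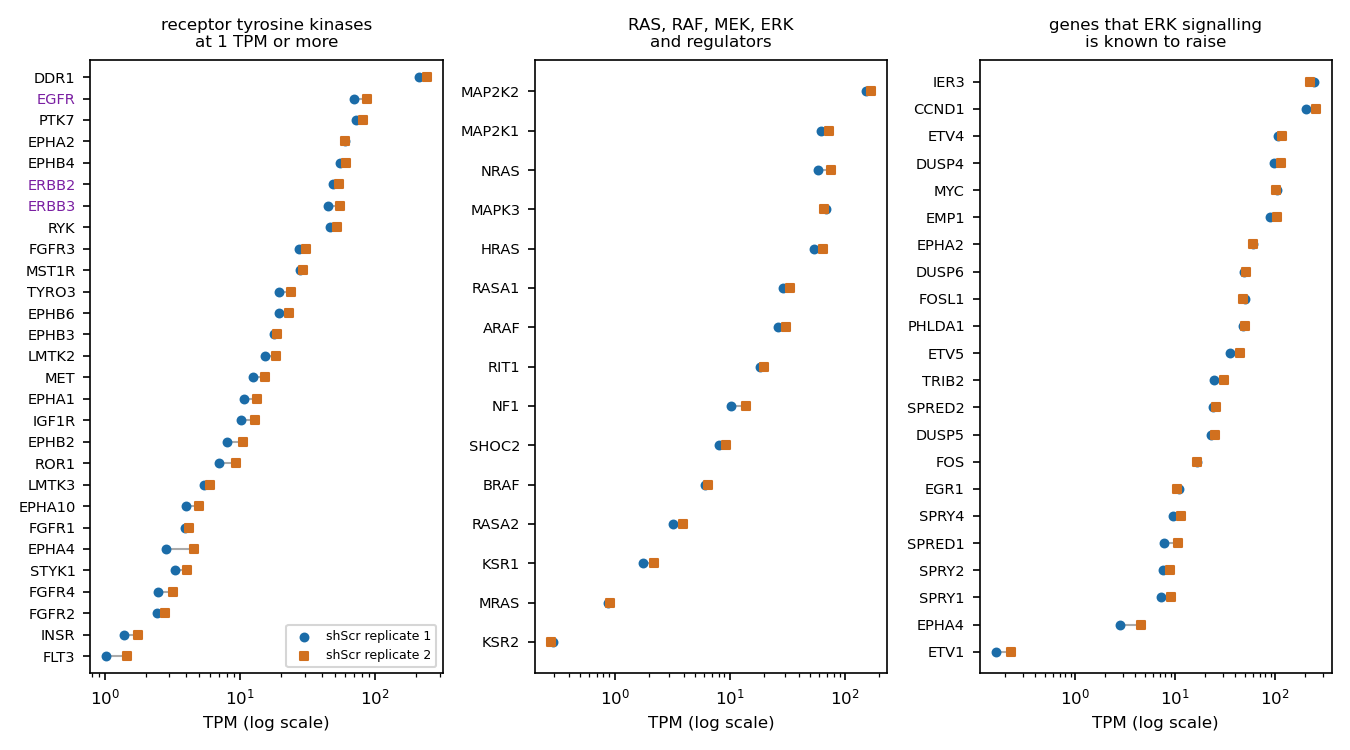
TPM (horizontal axes, log scale) of the 28 expressed receptor tyrosine kinases (left, EGFR family names in purple), of 15 of the 18 genes of the RAS and ERK list (middle) and of 22 genes that ERK signalling is known to raise (right), with 1 circle (replicate 1) and 1 square (replicate 2) per gene. DDR1 (209 and 240 TPM) stands above the other receptor kinases, MAP2K2 (153 and 170 TPM) above the genes drawn of its cascade, and BRAF (6.13 and 6.51 TPM) lies below ARAF.

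Nuclear receptors, transcription factors that small molecules switch, were expressed in 26 of 48 cases. This is 54.2%, against 59.4% of all symbols with a protein-coding isoform. NR2F6 lay at 174 and 173 TPM, ESRRA at 116 and 125 TPM, RXRA at 104 and 129 TPM and NR1H2 at 79.0 and 88.1 TPM. Among steroid receptors the glucocorticoid receptor NR3C1 lay at 17.0 and 20.6 TPM, and ESR1 at 1.14 and 1.73 TPM. PGR had 1 and 0 counts. NR0B1, a repressor best known from adrenal and gonad, lay at 61.3 and 62.0 TPM. It was chosen after its values were seen.

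Receptors of the TGF-beta and BMP family were expressed in 11 of 14 cases, with TGFBR1 (30.8 and 38.4 TPM), ENG, TGFBR2 and ACVR1B highest and AMHR2 and ACVR1C not expressed. Cytokine receptors were expressed in 24 of 35 cases. IL13RA1 lay at 77.8 and 93.4 TPM and IL4R, its partner in the type II receptor, at 45.5 and 52.7 TPM, then OSMR and IL17RC. Chains of lymphocyte receptors such as IL2RA and IL2RG had no count. Chemokine receptors were expressed in 1 of 19 cases, ACKR3, a scavenger of CXCL12, at 5.0 and 5.29 TPM, and CXCR4 lay at 0.63 and 0.38 TPM.

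TNF-family receptors were expressed in 11 of 15 cases. TNFRSF12A, the receptor of TWEAK, was the highest of all receptor genes named here at 395 and 362 TPM, followed by LTBR (141 and 155 TPM), TNFRSF21 and TNFRSF1A. TNFRSF1B and EDAR were under 1 TPM. Notch and Wnt receptors were expressed in 14 of 21 cases (66.7%, against 59.4% of all symbols with a protein-coding isoform). NOTCH3 (109 and 123 TPM), LRP5 (82.0 and 95.3 TPM), FZD6 and LGR4 were highest. SMO, the Hedgehog transducer, had 0 and 1 count, and LGR5 had no count.

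Integrins were expressed in 13 of 26 cases (50%, against 59.4% of all symbols with a protein-coding isoform). ITGB1 (203 and 234 TPM), ITGA3 (191 and 232 TPM), ITGB5 (117 and 134 TPM) and ITGA6 (93.8 and 119 TPM) were the highest, chains of laminin and vitronectin receptors. The leukocyte chains ITGAM, ITGAL and ITGA4 were at 0.06 TPM or below. Surface proteins that antibody drugs bind were expressed in 19 of 24 cases. LYPD3 lay at 161 and 169 TPM and F3, tissue factor, at 74.3 and 88.6 TPM, next to EGFR. CD274, the PD-L1 gene, lay at 0.57 and 0.51 TPM, SLC34A2 at 0.01 and 0.03 TPM and CLDN18 at 0.01 and 0 TPM.

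Of 27 tumor suppressors, 25 were expressed. CDKN2A, often deleted in lung cancer, was the highest at 630 and 521 TPM, and its neighbours CDKN2B (38.69 and 40.04 TPM) and MTAP (8.61 and 12.04 TPM) were also expressed. KEAP1 lay at 96.9 and 110 TPM and CDKN1B at 82.5 and 83.5 TPM. RBM10, the splicing factor under study, lay at 38.5 and 45.7 TPM. FHIT (0.32 and 0.23 TPM) and CDH13 (0.10 and 0.06 TPM) were not expressed. RNA levels do not show whether an expressed gene carries a mutation.

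Genes of cell division were expressed in 21 of 22 cases, led by PCNA (382 and 439 TPM), CCNB1 (227 and 262 TPM), CCND1 and AURKA (195 and 215 TPM). Cyclin D2, CCND2, had no count, whereas CCND3 lay at 105 and 112 TPM. Of the BCL2 family, 15 of 16 were expressed. The pore former BAX (196 and 174 TPM), BCL2L1 (147 and 164 TPM), BAD and the survival gene MCL1 (102 and 119 TPM) were highest. BCL2 itself lay at 1.07 and 1.86 TPM and BCL2A1 had no count. All 15 housekeeping genes were expressed, from TBP at 11.8 and 13.8 TPM up to GAPDH, with RPLP0, ACTB and PPIA next to it.

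Cancer-testis genes, usually limited to germ cells, were expressed in 6 of the 26 that were found. MAGEA6 (186 and 199 TPM), MAGEA3 (92.9 and 95.6 TPM), MAGEA12 (31.3 and 30.5 TPM) and MAGEA2 (23.9 and 30.8 TPM) were the highest. These neighbours on the X chromosome are nearly identical in sequence, so how the signal divides among them is uncertain. DDX43, which is not a MAGE gene, lay at 2.61 and 3.38 TPM, and PRAME, MAGEA4, CTAG1B and GAGE1 were not expressed.

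At the other end, 8687 symbols had no count in either library, 3712 of them coding. A count of 0 allows up to 3 counts per library and limits counting error only. Of these symbols, 2325 had no effective length in at least 1 library, being shorter than the fragments, and so could receive no count there. They included 1859 of 1861 microRNA genes and 366 of 371 snoRNA genes, for which these libraries give no information.

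Several gene families of other tissues were almost silent. Olfactory receptors had no count in 359 of 399 cases (89.97%), keratin-associated proteins of hair in 82 of 94 and defensins in 46 of 50. Taste receptors had none in 19 of 27 cases and interferons in 18 of 22. For comparison, 8687 of all 26334 symbols had no count, and 3712 of the 19248 with a protein-coding isoform. Of the genes without a count, 5 hair proteins and 2 defensins were too short to be counted in at least 1 library. DEFB1, a defensin that epithelia make constantly, was an expressed exception at 43.5 and 33.6 TPM. Of the 39 HOX genes 12 were expressed, with HOXB7 highest at 32.8 and 29.7 TPM and no other above 6 TPM. These families were read by symbol after values had been seen.

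The files list 2 or more isoforms for 6728 of the 12065 expressed genes (55.8%). An isoform was counted as in use when it made up 10% or more of its gene's TPM in both libraries. By this count 3471 of the 6728 genes (51.6%) had 2 or more isoforms in use, 641 had 3 or more and 3250 had 1. The leading isoform gave a median of 82.6% of its gene's TPM. It gave 90% or more in 2567 genes and under 50% in 600.

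More listed isoforms went with more in use. Of 2774 genes with 2 listed isoforms, 40.9% had 2 in use, and of 134 genes with 10 or more listed, 80.6% had 2 or more in use. Even these used few of their isoforms, 2.33 on average and 5 at most. Of 23287 listed isoforms of these genes, 10916 were in use and 3490 had 0 TPM in both libraries. The leading isoform was a different one in each library for 442 genes (6.57%), whose leading share had a median of 49.1%.

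**Figure D5:**
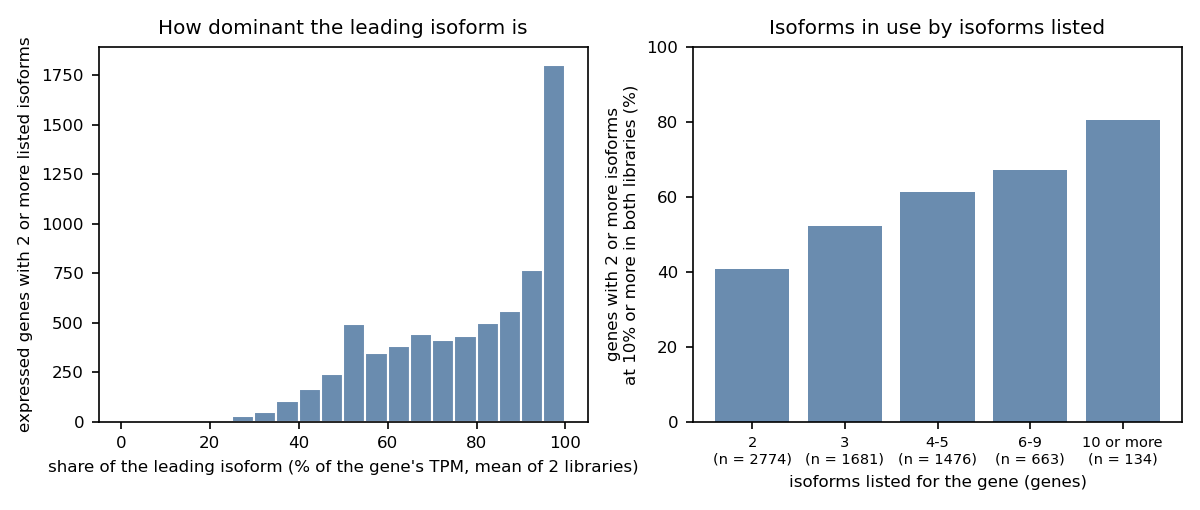
Left, share of the leading isoform (horizontal axis, percent of the gene's TPM) in the 6728 expressed genes with 2 or more listed isoforms (bars, number of genes). Right, percent of these genes with 2 or more isoforms in use, by the number of isoforms listed; it climbs from 40.9% to 80.6%.

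Among genes at 50 TPM or more, those with the highest level whose leading isoform held under 50% were GNAS, LRRC75A-AS1, HNRNPF, ZFAS1 and CAPNS1. GNAS, the stimulatory G protein alpha gene, had 1453 and 1464 TPM over 14 listed isoforms. Its total agreed closely between the libraries, but its parts did not. The noncoding NR_003259 held 33.3% in replicate 1 and 4.32% in replicate 2, and the coding NM_001309840 0.808% and 21.4%. Reads shared by isoforms were split by a model, so such shares can move between isoforms while the sum does not.

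Genes with the most isoforms at 5% or more were ANAPC11 (7 of 14), then HNRNPF, DDR1, PUF60 and C16orf13 (6 each). ANAPC11, a subunit of the anaphase-promoting complex, had a leading isoform of only 19.5%. DDR1, the highest receptor tyrosine kinase, had a leading isoform of 28.1% and 35.7%. The leading isoform differed between the libraries in GNAS, PTGR1, C6orf48 and HDLBP, among others. In PTGR1 the isoforms NM_001146108 and NM_012212 shared the output almost evenly, with NM_001146108 at 49.8% and 51.9%.

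Some isoforms cannot be told apart by reads at all. In 59 genes, isoforms of the same length were given the same TPM in both libraries, and in 50 of them the leading isoform was among these.

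In the driver pathway the receptors were simple. None of EGFR, ERBB2 and ERBB3 had 2 isoforms in use. Full-length EGFR held 98.2% and 98.1% of the gene's TPM, and of the shorter forms that lack the kinase domain NM_201283 held 1.56% and 1.45%. Full-length ERBB3 held 95.1% and 93.0% and its short secreted form 4.86% and 6.96%. MET was given to isoform b in full, with isoform a, which differs by 54 coding bases, at 0.

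Of HRAS, the p21 form held 81.5% and 78.9% and p19 10.8% and 11.3%. RAC1B, a form of the GTPase RAC1 that cycles fast and is known from epithelial tumors, held 11.03% and 12.2% of RAC1, or 36.1 and 44.2 TPM. It differs by 1 exon of 57 bases at chr7:6398662-6398718 on the plus strand (GENCODE 29, GRCh38), shown in capitals with 15 bases of each neighbouring exon.
RAC1B exon: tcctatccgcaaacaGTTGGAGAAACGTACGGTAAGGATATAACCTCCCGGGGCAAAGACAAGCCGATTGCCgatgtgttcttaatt

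PKM, pyruvate kinase, includes 1 of a pair of exons that exclude each other. PKM2, the form of proliferating cells, held 99.1% and 98.5%, or 2215 and 2373 TPM. The PKM1 isoforms NM_182470 and NM_182471 held 0.225% and 0.158% and 0.0971% and 0.0997%. The exons are shown because reads over them tell the forms apart. Each has 167 bases on the minus strand, that of PKM2 at chr15:72202454-72202620 and that of PKM1 at chr15:72203022-72203188. They are the same at 105 positions (62.9%), and capitals mark the 62 positions that differ.
PKM2 exon: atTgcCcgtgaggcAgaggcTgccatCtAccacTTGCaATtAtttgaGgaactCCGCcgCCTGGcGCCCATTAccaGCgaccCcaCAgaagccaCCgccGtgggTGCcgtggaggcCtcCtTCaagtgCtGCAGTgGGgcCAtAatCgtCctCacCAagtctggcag
PKM1 exon: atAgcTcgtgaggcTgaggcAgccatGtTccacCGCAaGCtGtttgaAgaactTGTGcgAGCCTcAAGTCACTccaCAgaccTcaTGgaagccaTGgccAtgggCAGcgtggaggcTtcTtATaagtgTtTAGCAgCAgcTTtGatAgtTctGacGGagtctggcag

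CD44, a receptor of hyaluronan, was made mostly as a form with variable exons. NM_001001390 held 71.1% and 68.1% (141 and 159 TPM). NM_001001389, of 5603 nt, came second at 21.2% and 22.2% (42.1 and 51.8 TPM). The standard form without variable exons held 4.53% and 5.54%, and the longest form, of 5732 nt, 3.03% and 4.02%. The form NM_001001390 has 3 coding exons that the standard form lacks, which keep the reading frame. They have 102, 90 and 204 bases at chr11:35208105-35208206, chr11:35209965-35210054 and chr11:35211246-35211449 on the plus strand, and the shorter ones are shown.
CD44 exon 6: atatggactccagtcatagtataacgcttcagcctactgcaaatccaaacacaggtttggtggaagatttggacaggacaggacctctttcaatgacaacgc
CD44 exon 7: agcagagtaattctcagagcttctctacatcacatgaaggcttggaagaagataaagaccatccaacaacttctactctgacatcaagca

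The epithelial IIIb form of FGFR2 was listed at 1.63 and 1.10 TPM and the mesenchymal IIIc form at 0 in both. The FGFR2 total of 2.43 and 2.76 TPM is low, so its shares of 67.1% and 39.9% are loose. The ubiquitous form of CDC42 held 96.6% and 96.2% and the brain form 0.0484% and 0.134%. Lamin C held 74.6% and 73.1% of LMNA and lamin A 23.6% and 21.6%.

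The cell death and cell cycle forms also agreed between the libraries. Bcl-xL held 91.1% and 92.2% of BCL2L1, and Bcl-xS the rest. The long, protective form of MCL1 held 99.6% and 99.7%, with the short form at 0.403% and 0.277%. CDKN2A encodes a pair of unrelated proteins, and p14ARF held 55.6% and 56.9% of its TPM against 43.9% and 42.9% for p16, with no overlap between the libraries.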

How the data were processed

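For each library the authors deposited 4 values per RefSeq isoform, as RSEM writes them. The deposited expected counts are reads after division among isoforms. The deposited TPM divides them by effective length, the deposited FPKM scales by length and library size and was used in 1 alternative, and the deposited percent of a gene's expression was recomputed from TPM per symbol, with differences of at most 0.506 points for isoforms above 1 TPM. The submitters' processing notes name STAR 2.4, RSEM 1.2.29, edgeR and hg19, without their order. The columns hold no comparison by the authors. No mitochondrially encoded gene is listed.

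Python 3.11.15 with pandas 2.3.3 summed the 51398 isoforms to 26334 symbols. The sums and shares were tested on simulated data. The depth of 32811419 and 32866663 expected counts makes 3 counts worth 0.0113 to 0.706 TPM, depending on length, for list genes with no count. The length used was that of each gene's longest isoform, and for shorter isoforms the limit is higher. The knockdown libraries were not used here, and with 1 condition no comparison was tested. Sequences came from GENCODE 29 (GRCh38, by RefSeq identifier) and RefSeq windows (GRCh38.p14). No coordinate was converted from hg19.

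Named genes were the 25 with the highest mean TPM, all members of the EGFR family receptors, their ligands and the RAS and ERK list, and the markers EGFR, EPCAM, KRT8 and KRT18. From each other list they were the 4 highest and up to 4 defining genes under 1 TPM. Isoforms were a fixed set. Genes for isoform use were the first 5 by 3 criteria at 50 TPM or more, and those for disagreement the 5 largest ratios at 10 TPM or more. A few genes outside the rule were named after their values were seen. These were the further members with values in the list paragraphs, DEFB1, HOXB7 and the genes of the other observations. Some genes that the rule names are not reported here, and counts over lists include them. The samples, members and lists were chosen with earlier results of these data known. The alternatives were other limits for expression and isoform use, other units, TPM without noncoding or ribosomal genes, and each library left out.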

Additional observations from a re-analysis of the deposited data

How the results depend on the processing

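The 12065 expressed genes became 15912 with any TPM above 0 and 9424 at 5 TPM, both within 1.5 times. The shares of abundance depended on the unit, because expected counts are not divided by length. In expected counts the 100 genes highest in that unit held 20.4% and ribosomal protein genes 7.23%, against 37.9% and 25.7% in TPM. EGFR came to 105 TPM, against 78.2 TPM, when ribosomal protein genes were left out of the total. Genes with 2 or more isoforms in use numbered 1546 with a limit of 25% and 2196 at 10 TPM or more, against 3471. The median leading share, 82.6%, was 85.1% at 10 TPM or more, 83.7% in expected counts and 82.9% with equal isoforms merged.

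With 1 library left out, expressed genes numbered 12168 to 12330, genes with no count 9392 to 9702 and genes with several isoforms in use 3856 to 3894. The top 100 genes held 35.9% to 39.8%, ribosomal protein genes 23.7% to 27.7%, EGFR lay at 69.1 to 87.4 TPM and the median leading share at 82.9% to 83.0%. One effective length for both libraries, merged isoforms and added ribosomal pseudogenes (26.9% of TPM) were chosen after the data were seen. No paired analysis was possible because only 1 condition was described and no test was run. Depth limits genes under 3 counts per library, and microRNA and snoRNA genes shorter than the fragments.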

Other observations

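Values of some enzymes that handle aldehydes, quinones and peroxides follow. These genes were picked after their values were seen and were not tested as a group. Of 10 aldo-keto reductases of the AKR1 family 7 were expressed, led by AKR1B10 at 1619 and 1827 TPM, AKR1C1 at 1591 and 1638 TPM and AKR1C3 at 1081 and 1138 TPM. AKR1C1 is nearly identical to AKR1C2 (365 and 377 TPM), so their division is uncertain. NQO1, a quinone reductase, lay at 1046 and 1110 TPM, ALDH3A1, an aldehyde dehydrogenase, at 1220 and 1346 TPM, and GSTP1, a glutathione transferase, at 2450 and 2324 TPM. The peroxide enzyme PRDX1 lay at 2211 and 2203 TPM.

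Calcium-binding S100 genes were expressed in 14 of 19 cases. S100A9, best known from myeloid cells, lay at 2339 and 2262 TPM and its partner S100A8 at 168 and 164 TPM. S100P lay at 1960 and 1629 TPM. The leukocyte gene PTPRC had 2 counts in each library. Of 24 claudins 8 were expressed and 7 had no count, with CLDN4 highest. EEF1A2, an elongation factor best known from muscle and neurons, lay at 1408 and 1486 TPM.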
